A study of Mus musculus with 102 samples.

Results

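The 10 genes followed here mark astrocytes, and they were read across the central nervous system of the adult mouse: *Gfap*, *Aqp4*, *Slc1a2*, *Slc1a3*, *Gja1*, *Gjb6*, *Aldh1l1*, *Agt*, *Slc6a11* and *Fgfr3*. They are 10 of the 18193 genes that the array annotation names, and 31 of the 45037 probe sets that are not controls. Each gene was read from the probe set with the highest mean over 48 regions, and its remaining probe sets served as a check. The genes were chosen by name, and *Gfap*, *Agt* and *Slc6a11* were contrasted, as genes that vary, with the other 7. That split was made with results of these data known. The RNA came from male Balb/c mice aged 7 to 8 weeks, untreated and of no stated genotype, which were kept in a light/dark cycle and then sampled in that cycle or in constant darkness. Punches 0.5 mm across were taken at 6 time points, 4 h apart over 1 day, and the time points of a region were pooled. Each of 51 regions was represented by 2 such pools (102 arrays in all), which the labels number as replicates 1 and 2. The retina, pituitary and pineal were set aside, which left 48 regions on 96 arrays. A pool mixes tissue from many mice, so the spread between pools is that of pooled tissue and not of single animals.

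Astrocytes are the glial cells whose processes wrap synapses and blood vessels. They take up the glutamate and GABA that neurons release, buffer potassium, move water at the vessel wall, share small molecules with each other through gap junctions and supply neurons with glutamine. Their intermediate filament protein Gfap is the usual stain for them, although astrocytes of the cortical grey matter are known to carry little of it, and their gene expression is known to differ between brain regions.

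The values are log2 intensities, so that a difference of 1 is a 2-fold change of signal, and each probe set was compared only with itself across regions. The medians of the arrays lay between 7.32 and 7.46, and the pools of a region correlated at r = 0.988 to 0.997 over all probe sets. Of 13 genes known to mark single regions or pairs of regions, 10 were highest in the regions labelled for them. *Oxt*, the only gene labelled for the supraoptic nucleus, was highest in the paraventricular nucleus. *Six6*, labelled for the suprachiasmatic nucleus, was highest in the median eminence, while *Vip*, with the same label, matched it. *Drd1*, labelled for the caudate putamen, was highest in the olfactory tubercle. The number of arrays limits the precision: over the 10 astrocyte genes the median difference between the pools of a region was 0.132. In punched tissue, fewer astrocytes and less RNA per astrocyte cannot be told apart.

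All 10 genes differed among the 48 regions (limma F test, adjusted p at most 1.1e-21), as did 91.1% of all probe sets. How far they differed was not alike. Since *Gfap*, *Agt* and *Slc6a11* were set apart with results of these data known, their wider spread describes that choice and is no separate finding. The standard deviation of the regional means was 1.31 for *Agt*, 1.17 for *Slc6a11* and 1.15 for *Gfap*, against 0.396 to 0.958 for the other 7 genes (median 0.432) and a median of 0.194 over all probe sets. *Aqp4*, at 0.958, lay close to the wide genes and *Gjb6*, at 0.677, between them and the rest. The 5 most even genes were *Slc1a3* at 0.543, *Fgfr3* at 0.432, *Gja1* at 0.427, *Aldh1l1* at 0.405 and *Slc1a2* at 0.396. Among probe sets of like mean level (within 0.5), *Gfap*, *Agt* and *Slc6a11* varied more than 98.2% to 98.9% of them, *Aqp4* more than 96.7% and *Aldh1l1* more than 71.0%. From the lowest to the highest region the signal changed 38.3-fold for *Gfap*, 22.1-fold for *Slc6a11* and 19.0-fold for *Agt*, but 2.95-fold for *Aldh1l1*.

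The 250 bases before the start of the 3 genes that vary most are shown because their levels differed most between regions. The sequences are from RefSeq on build GRCm38.p6, on each gene's own strand and 5′ to 3′, with matches in capitals to the letters TATAAA on the gene strand (TATA box), and on both strands to TTCNNNGAA (STAT site), TTGGC (nuclear factor I half-site) and TGANTCA (AP-1 site).
*Agt*, chr8:124569707-124569956, minus strand: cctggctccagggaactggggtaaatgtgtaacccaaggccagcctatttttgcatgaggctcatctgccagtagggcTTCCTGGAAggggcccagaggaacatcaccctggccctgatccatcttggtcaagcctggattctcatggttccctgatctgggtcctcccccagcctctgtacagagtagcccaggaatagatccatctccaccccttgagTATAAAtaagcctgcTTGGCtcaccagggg
*Gfap*, chr11:102897201-102897450, minus strand: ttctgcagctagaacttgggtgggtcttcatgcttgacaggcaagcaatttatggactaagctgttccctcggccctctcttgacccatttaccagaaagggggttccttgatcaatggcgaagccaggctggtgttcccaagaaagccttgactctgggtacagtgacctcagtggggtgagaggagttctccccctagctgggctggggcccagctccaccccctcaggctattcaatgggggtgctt
*Slc6a11*, chr6:114130991-114131240, plus strand: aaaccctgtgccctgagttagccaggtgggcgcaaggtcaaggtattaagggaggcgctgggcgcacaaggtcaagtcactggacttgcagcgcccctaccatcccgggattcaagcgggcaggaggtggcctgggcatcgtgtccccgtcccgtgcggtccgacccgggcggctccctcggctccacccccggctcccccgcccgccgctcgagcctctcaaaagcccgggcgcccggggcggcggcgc
The *Agt* window held TATAAA from 30 to 25 bases before the start, TTGGC from 15 to 11 and TTCNNNGAA from 172 to 164, and it held no CpG. The *Slc6a11* window was 71.2% G and C with 25 CpG and none of the 4 motifs. The *Gfap* window held 2 CpG and none of them. Over the 32851 promoters of the table, 7.59% held TATAAA, 41.5% TTGGC, 7.02% TTCNNNGAA and 6.75% TGANTCA, and the median was 52.4% G and C with 6 CpG. Of the other 6 genes with a window used here, *Gja1* held TGANTCA from 19 to 13 bases before the start, *Slc1a2* held TTGGC, *Slc1a3* held TTCNNNGAA, and *Gjb6*, *Aldh1l1* and *Fgfr3* held none. The *Slc1a2* window, chr2:102706188-102706437, lies inside the span of the gene (102658239 to 102790784), as does a further window of *Fgfr3* inside its own. These are matches of letters only, and no binding was measured.

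*Gfap*, the astrocyte intermediate filament (probe set 1426508_at), was highest in the suprachiasmatic nucleus (SCN), the circadian clock of the hypothalamus, where the pools read 13.69 and 13.68. The supraoptic nucleus (SO) followed at 12.59 and 12.34, then the anterior spinal cord at 12.37 and 12.44 and the posterior spinal cord at 12.24 and 12.18. The SCN stood 1.22 above the SO with no overlap between pools. Next came the pontine nucleus (Pn, 11.45), the posterior olfactory bulb (OB posterior, 11.33), the substantia nigra (SN, 11.31), hippocampal CA2/CA3 (11.14), the habenula (Hb, 11.09), CA1 (10.98), the anterior olfactory bulb (10.98) and the globus pallidus (GP, 10.79). These are regional means, and they hide the least repeatable values of the gene: the pools read 11.64 and 10.54 in Hb and 10.61 and 11.68 in CA2/CA3. The neighbours from Pn to GP overlapped between pools, so that their order is not resolved.

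The low end of *Gfap* lay in motor cortex (8.50 and 8.36), the lateral caudate putamen (CPu lateral, 8.47 and 8.44), the mediodorsal thalamus (MD, 8.47 and 8.51), the medial caudate putamen (CPu medial, 8.70 and 8.49), the lateral hypothalamus (LH, 8.80 and 8.55) and the posterior amygdala (8.71 on average). Low values were thus found in cortex, striatum, thalamus, hypothalamus and amygdala alike. Within the hypothalamus the gene ran from 8.67 in LH to 13.69 in the SCN, nearly its whole range over the 48 regions. Within the thalamus it ran from 8.49 in MD to 11.09 in Hb. Against the other 47 regions *Gfap* was higher in 15 regions, lower in 18 and not past the threshold in 15. Of the 47 steps between neighbours in its order, 8 had no overlap between pools.

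*Agt* (probe set 1423396_at) encodes angiotensinogen, the precursor of the angiotensin peptides, which astrocytes make in the brain. It was highest in the SCN at 12.32 and 12.04, in the SN at 12.46 and 11.81 and in the SO at 11.98 and 11.80, and the first and second of these overlapped. The paraventricular nucleus (Pa, 11.54), the cerebellar nucleus (11.40), the dorsal tegmental nucleus (Tg, 11.28), the dorsal and ventral subparaventricular zones (11.27 and 11.21), the periaqueductal gray (PAG, 11.22) and the GP (11.19) followed. Its low end was telencephalic throughout: motor cortex at 8.01 and 7.85, the anterior olfactory bulb at 7.91 and 8.17, CPu medial at 8.02 and 8.10, cingulate cortex at 8.23 and 7.96 and piriform cortex (Pir) at 8.11 on average. Between these ends lay a gap. Of 17 telencephalic regions, 15 had means from 7.93 to 8.85, and the next region upward was the median eminence (ME) at 9.47. The exceptions in the telencephalon were the anterior amygdala, at 9.85 and 10.15, and the GP, at 11.17 and 11.21. *Agt* was higher in 24 regions, lower in 17 and not past the threshold in 7, the smallest number without a call among the 10 genes, shared with *Slc6a11*.

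*Slc6a11* (probe set 1433989_at) encodes GAT3, the transporter by which astrocytes take up GABA. Both olfactory bulb regions led, at 12.38 and 12.51 in the posterior and 12.46 and 12.25 in the anterior part, followed by the SN (12.20 and 12.08), the mammillary body (M, 11.77 and 12.12), the dorsomedial hypothalamus (DM, 11.82 and 11.95) and the SCN (11.80). These regions sit in the telencephalon, midbrain and hypothalamus. The lowest values were those of the cerebellar cortex and striatum: the cerebellar lobe read 8.11 and 7.84, CPu medial 8.61 and 8.20, CPu lateral 8.79 and 8.43, the cerebellar vermis 8.75 and 8.55 and Pir 8.59 and 8.72. The hippocampal fields and ventral subiculum (8.92 to 9.58) and the neocortex (9.13 to 9.41) came next. The cerebellum was thus split, since its nucleus read 10.95 and 11.51. The 6 thalamic regions lay within 10.80 to 11.30, the narrowest spread of this gene in any division of more than 2 regions. *Slc6a11* was higher in 24 regions and lower in 17.

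**Figure D1:**
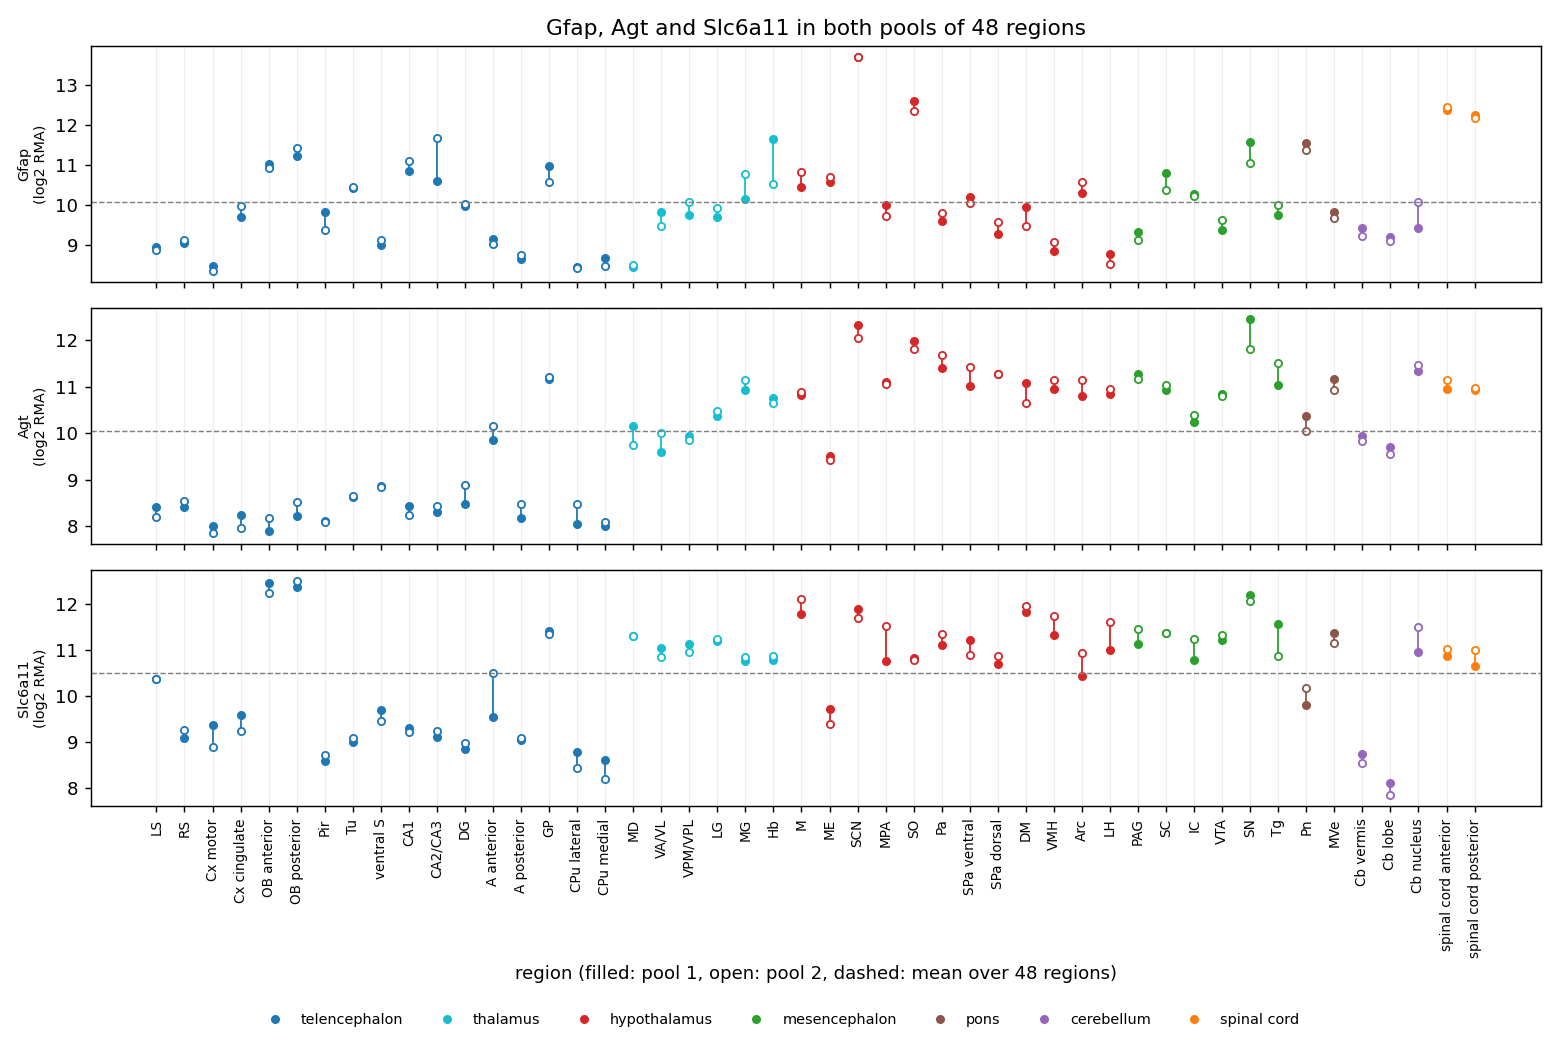
Log2 intensity of *Gfap*, *Agt* and *Slc6a11* in 48 regions, with a point for each of 2 pools and regions ordered and coloured by division. *Gfap* peaks in the SCN at 13.69, *Agt* forms a low telencephalic group from 7.93 to 8.85 apart from the anterior amygdala and GP, and *Slc6a11* is highest in the olfactory bulb and lowest in the cerebellar lobe.

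*Aqp4* (probe set 1425382_a_at), the water channel of astrocyte endfeet, was highest in the SO (12.77 and 12.70) and SN (12.74 and 12.25), which overlapped, and then in the anterior (12.18 and 12.27) and posterior (12.13 and 12.28) spinal cord. It was lowest in the ventral subiculum (8.81 and 9.13), posterior amygdala (9.15 and 9.26), DM (9.23 and 9.30) and CPu medial (9.55 and 8.98). The pons, cerebellum and spinal cord were high throughout, with no region under 11.35. The hypothalamus was divided, from 9.27 in DM to 12.73 in the SO. In motor cortex the pools read 9.89 and 8.93, the widest disagreement of this gene. *Aqp4* was higher in 18 regions and lower in 19.

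The gap junction genes *Gja1* (connexin 43, probe set 1437992_x_at) and *Gjb6* (connexin 30, probe set 1448397_at) join astrocytes to each other. *Gja1* was highest in the SCN (13.13 and 13.07), the SN (13.21 and 12.83) and the cerebellar nucleus (13.06 and 12.97), which overlapped, and lowest in CPu lateral (11.26 and 11.53), motor cortex (11.41 and 11.59) and CPu medial (11.30 and 11.77). *Gjb6* was highest in the SO (12.33 and 12.18), with no overlap over the SCN (11.67 and 11.63), and lowest in CPu medial (8.67 and 8.39), CPu lateral (9.05 and 8.85) and Pir (9.29 and 8.92). *Gjb6* thus had its floor in the caudate putamen. For *Gja1* these lowest regions overlapped, and its probe set with the next highest mean was lowest in motor cortex. From floor to top the signal changed 3.26-fold for *Gja1* and 13.2-fold for *Gjb6*. *Gjb6* had 25 of 48 regions not past the threshold, the most of any of the 10 genes. That does not make it even: its regional means had a standard deviation of 0.677, against 0.427 for *Gja1*. Its pools also differed more, with a residual standard deviation of 0.166 against 0.116. The ratio of the regional to the residual standard deviation was nevertheless larger for *Gjb6* (4.07) than for *Gja1* (3.68). The reason for its many regions without a call was not tested.

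The glutamate transporters went different ways. *Slc1a2* (GLT-1, probe set 1438194_at), the main glutamate transporter of the forebrain, was highest in cingulate cortex (13.68 and 13.44), motor cortex (13.62 and 13.42), the lateral septum (LS, 13.55 and 13.43) and retrosplenial cortex (RS, 13.33 and 13.48), and lowest in ME (11.47 and 11.54), Hb (11.77 and 12.12) and the cerebellar lobe (12.25 and 12.24) and vermis (12.30 and 12.39). *Slc1a3* (GLAST, probe set 1443749_x_at), the main one of cerebellar Bergmann glia, was highest in the cerebellar lobe (12.82 and 12.85) and vermis (12.74 and 12.75), then in the SCN (12.53 and 12.45) and LS (12.63 and 12.34). Its lowest regions were the anterior spinal cord (10.36 and 10.75), the posterior spinal cord (10.40 and 10.78), Hb (10.34 and 10.87) and Pn (10.88 and 10.60). Both cerebellar regions were therefore near the floor of the first transporter and at the top of the second, while the spinal cord was at the floor of the second. Over the 48 regions the pair had r = -0.21. The highest 1% of values on an array began at 12.1 to 12.5, and the highest value was 14.9. *Slc1a2* and *Gja1*, at 12.9 and 12.4 on average, were thus read near the top of the scale. So were other genes in single regions, such as *Gfap* in the SCN (13.69), *Slc1a3* in the cerebellar lobe (12.83) and *Aqp4* in the SO (12.73). Whether differences are compressed there was not tested.

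*Aldh1l1* (probe set 1424400_a_at), a folate enzyme used as an astrocyte marker, ranged least. It was highest in the SCN (10.15 and 10.01), OB posterior (10.06 and 10.04) and inferior colliculus (9.99 on average) and lowest in the posterior amygdala (8.47 and 8.56), ME (8.72 and 8.52) and dentate gyrus (DG, 8.76 and 8.64). It was higher in 21 regions, lower in 17 and not past the threshold in 10. *Fgfr3* (probe set 1421841_at), a receptor for fibroblast growth factors, was highest in the anterior spinal cord (11.26 and 11.16), Tg (10.84 and 11.24) and SN (11.16 and 10.90), which overlapped, and lowest in ME (9.23 and 9.28) and DG (9.63 and 9.37). ME was thus the lowest region of *Slc1a2* and *Fgfr3* and the second lowest of *Aldh1l1*, though not of *Gfap* (10.63) or *Gja1* (12.64).

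**Figure D2:**
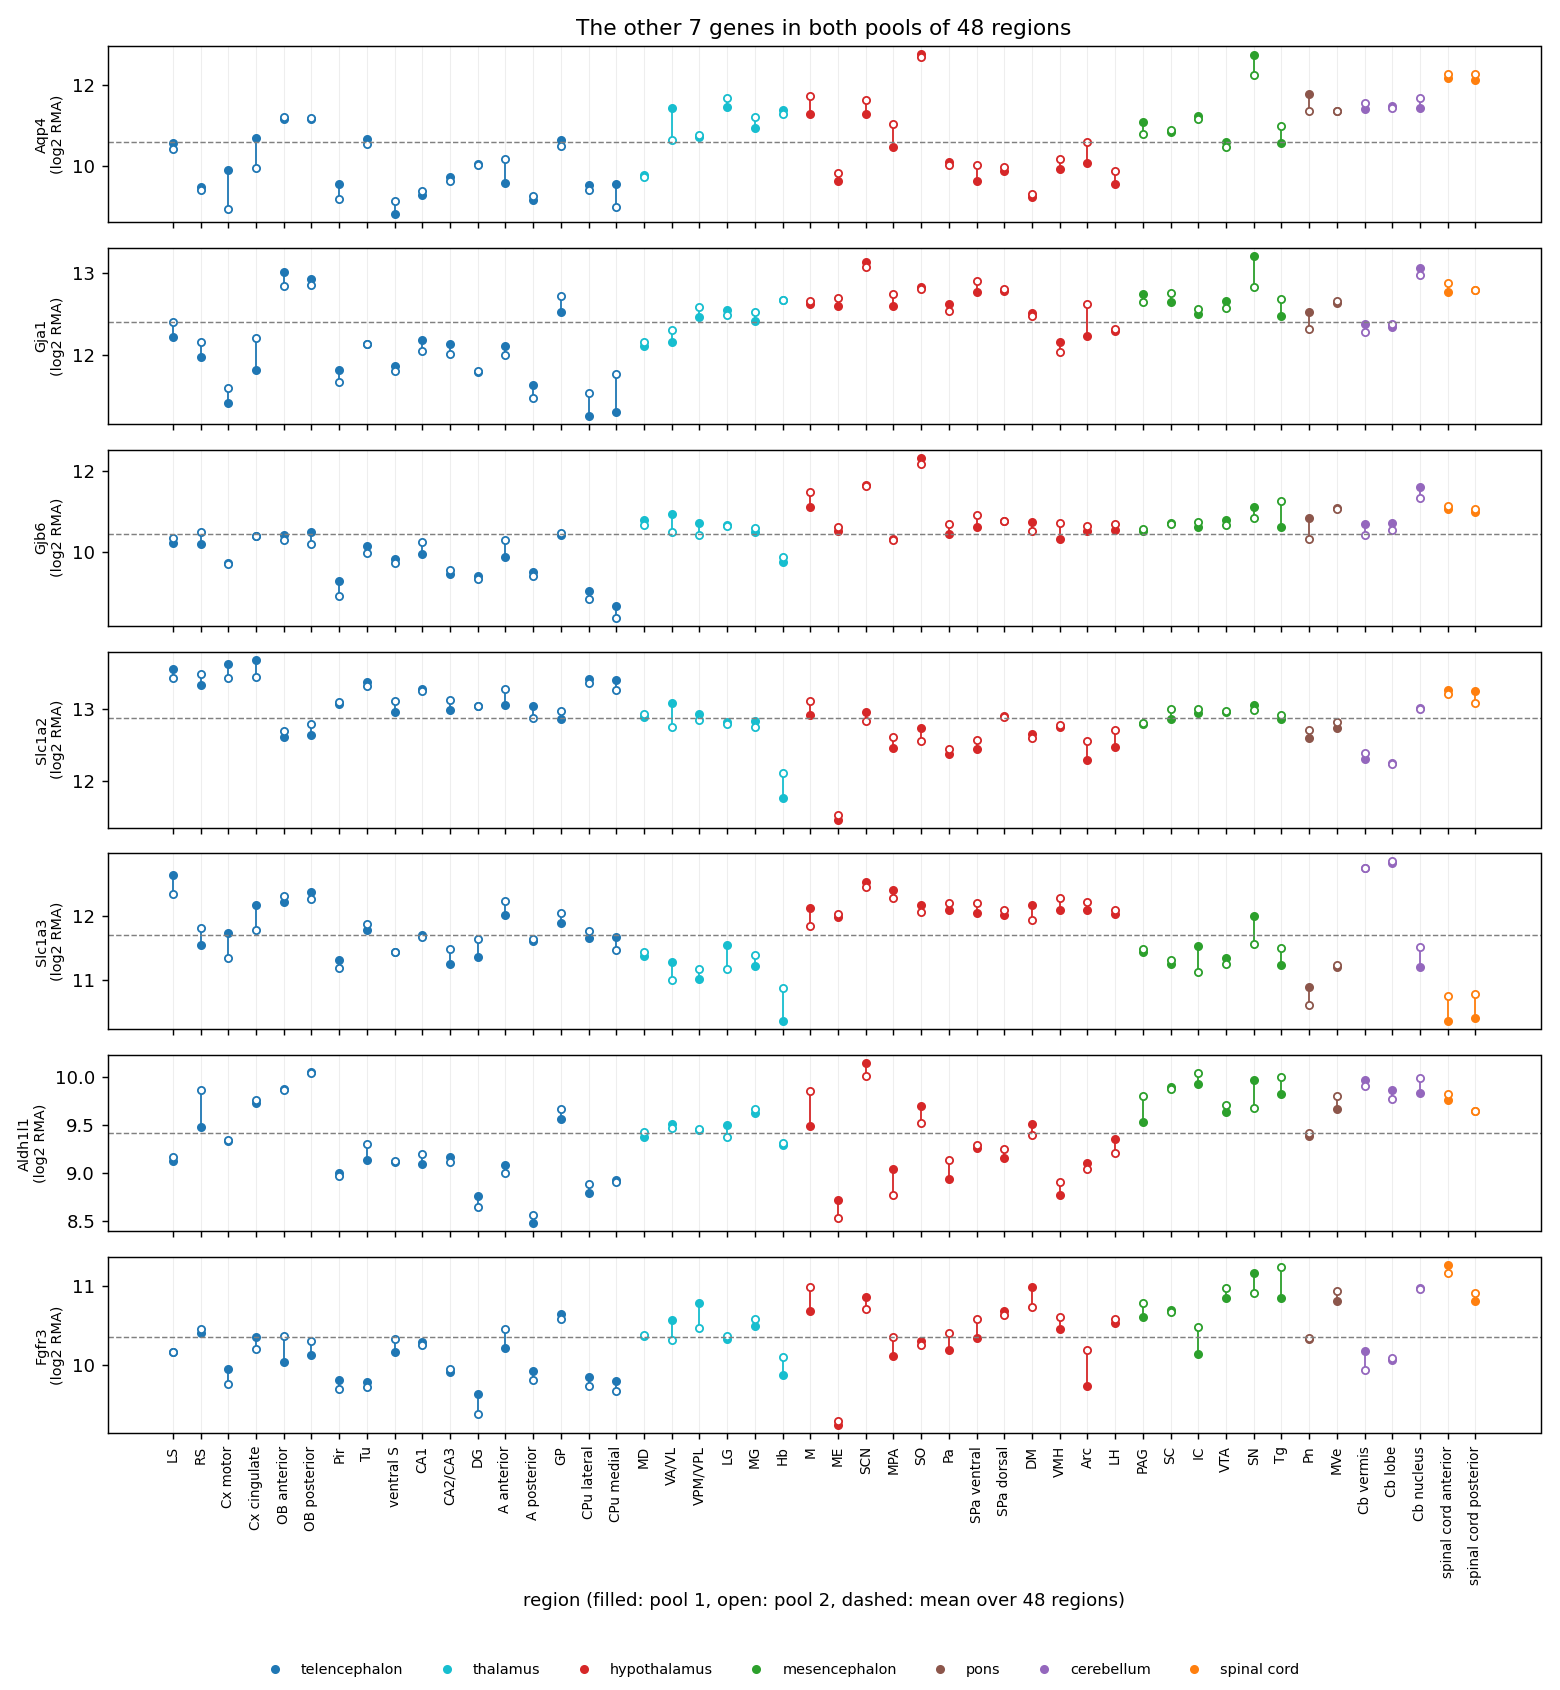
Log2 intensity of *Aqp4*, *Gja1*, *Gjb6*, *Slc1a2*, *Slc1a3*, *Aldh1l1* and *Fgfr3* in 48 regions, with a point for each of 2 pools and regions grouped by division on the x axis. *Slc1a3* is highest and *Slc1a2* low in the cerebellar lobe and vermis, and *Gjb6* falls to 8.53 in the medial caudate putamen.

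Outside the 48 regions, the pituitary, an endocrine gland, read 7.89 for *Gfap*, 7.40 for *Aqp4* and 6.59 for *Gjb6*. The pineal read 8.45, 7.90 and 9.90 for the same genes. The retina read 8.66, 8.63 and 9.57. For *Agt* these 3 tissues read 7.84, 7.86 and 7.62, while the lowest of the 48 regions read 7.93, so *Agt* in motor cortex lay near its level outside the brain. For *Slc6a11* the cerebellar lobe, at 7.98, lay below all of them (8.62, 9.69 and 8.17). *Fgfr3* in the retina read 10.38, close to its mean of 10.35 over the 48 regions.

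Taking each region against the mean of the other 47, 177 of the 480 pairs of gene and region were higher and 158 lower (limma, Benjamini-Hochberg over all probe sets), where 13.9% and 14.7% of all pairs of probe set and region were. In the SCN 9 of 10 genes were higher and none lower, with a median difference of 0.85 and *Slc1a2* not past the threshold. In the SN and M 8 were higher and none lower, in the anterior spinal cord 9 were higher and *Slc1a3* lower, and in the posterior spinal cord 8 were higher and *Slc1a3* lower. At the other end, 9 genes were lower in Pir with *Slc1a2* higher, and 8 were lower in CPu lateral and CPu medial with *Slc1a2* higher. In those striatal regions the median differences were -1.08 and -1.11. In the posterior amygdala 8 were lower and none higher, and in the ventral subiculum and DG 7 were lower and none higher. In the SO 7 were higher and *Slc1a2* lower, in the anterior olfactory bulb 6 were higher and *Agt* and *Slc1a2* lower, and in the posterior 6 were higher and *Agt* lower. Over all probe sets the share called higher was 22.5% in the SCN, 10% in the SN, 9.69% in M and 16.5% and 10.8% in the anterior and posterior spinal cord. The shares called higher and lower were 20.9% and 20.3% in the SO, 16.4% and 16% in the anterior and 17.2% and 17.5% in the posterior olfactory bulb. The share called lower was 19.1% in Pir, 21% in CPu lateral, 17% in CPu medial, 17.4% in the posterior amygdala, 20% in the ventral subiculum and 17.8% in DG.

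Some regions split the genes. In CA2/CA3, *Gfap* and *Slc1a2* were higher and the other 8 lower. In CA1 the same pair was higher and 6 were lower. In ME, *Gfap*, *Gja1* and *Slc1a3* were higher and 6 lower. In Hb, *Gfap*, *Agt*, *Aqp4* and *Gja1* were higher and *Slc1a2*, *Slc1a3*, *Gjb6* and *Fgfr3* lower. The medians over the genes in these regions, from -0.70 in ME to 0.08 in Hb, hide these opposite moves. Over all probe sets the shares called higher and lower were 13% and 13.7% in CA2/CA3, 17.7% and 23.6% in CA1, 21.4% and 20.4% in ME, and 15.2% and 11.5% in Hb.

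To show where each wide gene left the others, its centred level was set beside the mean centred level of the 7 genes outside the wide group. *Gfap* exceeded that mean by 2.93 in the SCN, 1.87 and 1.76 in the anterior and posterior spinal cord, 1.71 in the SO and 1.49 in CA2/CA3, and was below it by the largest amount in MD (-1.45) and LH (-1.32). *Agt* exceeded it most in Pa (1.59), SN (1.47) and SCN (1.46), and fell furthest below in the anterior olfactory bulb (-2.25) and cingulate cortex (-2.02). *Slc6a11* exceeded it most in the posterior (1.67) and anterior (1.61) olfactory bulb and in DM (1.44), and fell furthest below in the cerebellar lobe (-2.76) and vermis (-2.09). The olfactory bulb thus held the largest excess of *Slc6a11* and the largest shortfall of *Agt*.

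Across the 48 regions, which share arrays and a common normalization, the connexins were close to each other (r = 0.80) and to *Agt* (0.72 for *Gja1* and 0.75 for *Gjb6*), *Gja1* to *Slc6a11* (0.76) and *Aqp4* (0.70), and *Fgfr3* to *Agt* and *Slc6a11* (0.68 each). *Agt* and *Slc6a11* had r = 0.65, but *Gfap* followed them weakly (0.37 and 0.36) and was nearer to *Aqp4* and *Gja1* (0.63 each). The glutamate transporters stood outside this group. *Slc1a2* had r = -0.43 with *Gja1* and -0.39 with *Agt*, and *Slc1a3* had r between -0.21 and 0.10 with every other gene.

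Among 14448 genes with an informative probe set, the 3 whose regional means were most like each gene were named. They were *Slc7a2*, a cationic amino acid transporter, 1810058I24Rik and *Retsat* for *Gfap* (r = 0.78, 0.78 and 0.77), and the matrix protein gene *Sparc*, *Pgm1* and *Gpld1* for *Agt* (0.91, 0.89 and 0.87). For *Slc6a11* they were 2310022B05Rik, *Insyn2b* and *Sash1* (0.86, 0.86 and 0.84), and for *Aqp4* the polarity gene *Llgl1*, *Adh5* and *Hadh* (0.84, 0.80 and 0.80). *Gja1* had the closest companions, *Abhd4*, the tetraspanin gene *Cd81* and *Aldh6a1* (0.92, 0.91 and 0.90), and *Gjb6* had *Ide*, *Il6st* and *Mid1ip1* (0.84, 0.84 and 0.83). *Aldh1l1* was most like *Pcx*, which encodes pyruvate carboxylase, *Ankrd40* and *Gpr37l1* (0.84 each). *Fgfr3* was most like the amino acid transporter gene *Slc7a10*, *Glud1*, which encodes glutamate dehydrogenase, and *Atp13a4* (0.88, 0.87 and 0.85). *Slc1a2* was most like *Lin7b*, *Camk1d* and *Efna3* (0.80, 0.77 and 0.76), and *Slc1a3* like *Fbrsl1*, *Tut4* and *Stag1* (0.81, 0.79 and 0.77).

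The 17 telencephalic regions were compared with the other 31, which include the thalamus and hypothalamus, to ask how far the telencephalon stands apart. *Agt* showed the widest difference, at 8.59 in the telencephalon against 10.84 elsewhere (-2.25, standard error 0.04, adjusted p = 1.7e-49), a 4.75-fold lower signal. *Slc6a11* (-1.23), *Aqp4* (-1.05), *Gjb6* (-0.98), *Gja1* (-0.56), *Gfap* (-0.54), *Fgfr3* (-0.46) and *Aldh1l1* (-0.28) were lower as well, while *Slc1a2* (0.46) and *Slc1a3* (0.13) were higher. That makes 8 genes lower and 2 higher, beside 30.1% and 26.5% of all probe sets, with a median of -0.55 over the 10 genes and 0.01 over all probe sets (limma, Benjamini-Hochberg). Of the 17 regions, 15 lay below every one of the other 31 for *Agt*, 11 for *Gja1* and 8 for *Gjb6*, and 2, both of the olfactory bulb, lay above all of them for *Slc6a11*. The error of such a difference covers the spread between pools only, and the regions of a division differ more than that. Comparisons of divisions also share regions with each other.

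The study took its regions in 4 sampling periods. Each period holds different regions, so an effect of the period cannot be told apart from the choice of regions in it. Within the 3 periods that hold at least 2 telencephalic and 2 other regions, *Agt* differed by -2.34, -1.60 and -2.85, *Slc6a11* by -1.48, -1.38 and -0.94 and *Gfap* by -1.13, -0.24 and -0.80. *Aqp4*, *Gja1*, *Gjb6*, *Aldh1l1* and *Fgfr3* were lower and *Slc1a2* higher in each of them too. *Slc1a3* was not stable: it differed by -0.20, 0.46 and 0.10, and by 0.06 (adjusted p = 0.116) without the olfactory bulb. Without the bulb *Slc6a11* differed by -1.59.

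Other genes of the same pathways were read from lists. Of 26 other astrocyte genes 21 were lower in the telencephalon and 3 higher (median -0.39), led by *Itih3*, an inter-alpha-trypsin inhibitor chain (9.27 against 11.55), the zinc transporter gene *Slc39a12* (-0.995) and *S100b* (-0.91). Of 9 genes of water and potassium handling 7 were lower and 2 higher (median -0.54), with the potassium channel genes *Kcnj10* (-0.94) and *Kcnj16* (-0.89) and the sodium pump subunit gene *Atp1b2* (-0.64) in front. Of 7 other connexins 6 were lower and 1 higher (median -0.36), the first being *Gjb1* (-0.75), a connexin of oligodendrocytes, then *Gjd2* (-0.66) and *Gjc1* (-0.46). These lists leaned the way most of the 10 genes did, beside 30.1% of all probe sets lower and 26.5% higher. The lists were chosen with earlier results of these data known, and that of connexins is not of astrocytes alone. The same shares stand beside the counts of the telencephalic lists that follow.

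The remaining lists had medians between -0.12 and 0.01, and each but that of reactive astrocytes held genes that were higher and genes that were lower. Of 4 filament genes 2 were lower (*Vim* -0.67, *Synm* -0.11) and 1 higher (*Plec* 0.13). Of 7 genes of glutamate and glutamine handling 2 were higher and 2 lower (0.60 for *Slc1a1*, the neuronal glutamate transporter, -0.40 for *Glud1* and -0.28 for *Slc1a4*). Of 8 GABA genes 5 were lower and 2 higher (-0.81 for *Maob*, -0.65 for *Abat* and 0.66 for *Gad1*, the GABA synthesis gene of neurons). Of 9 angiotensin genes 5 were lower and 2 higher, with the receptor gene *Mas1* at 0.91, the peptidase gene *Enpep* at -0.32 and the receptor gene *Agtr2* at -0.25. Of 14 genes of fibroblast growth factor signalling 6 were lower and 4 higher (the ligand gene *Fgf1* -1.43, the feedback phosphatase gene *Dusp6* 1.15 and *Etv5* 0.77). Of 6 one-carbon genes 4 were lower and 1 higher (*Gldc* 0.89, *Aldh1l2* -0.45, *Mthfd1l* -0.29). Of 14 genes known from reactive astrocytes 8 were lower and none higher (*Serping1* -0.56, *Cd44* -0.56, *Cp* -0.35).

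Markers of other cell types differed as well. All 12 oligodendrocyte genes measured were lower in the telencephalon (median -1.08), and the mean of the list ran from 7.74 to 11.33 there and from 8.68 to 11.86 elsewhere. Ependymal genes were lower in 9 of 10, leptomeningeal genes in 9 of 12, endothelial genes in 6 of 9 and Bergmann glia genes in 3 of 5, microglia genes were higher in 8 of 9, and neuron genes were higher in 5 and lower in 5 of 10. Of 8 choroid plexus genes 2 were higher and 1 lower, of 5 Müller glia genes 2 and 3, and of 6 tanycyte genes 3 and 2. The part of these cell types in the astrocyte gene differences was not tested. Over the 48 regions the oligodendrocyte list had r = 0.61 with *Aqp4*, 0.57 with *Aldh1l1*, 0.54 with *Fgfr3*, 0.50 with *Gjb6*, 0.48 with *Gfap*, 0.46 with *Gja1*, 0.45 with *Agt*, 0.33 with *Slc6a11*, 0.02 with *Slc1a2* and -0.45 with *Slc1a3*.

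**Figure D3:**
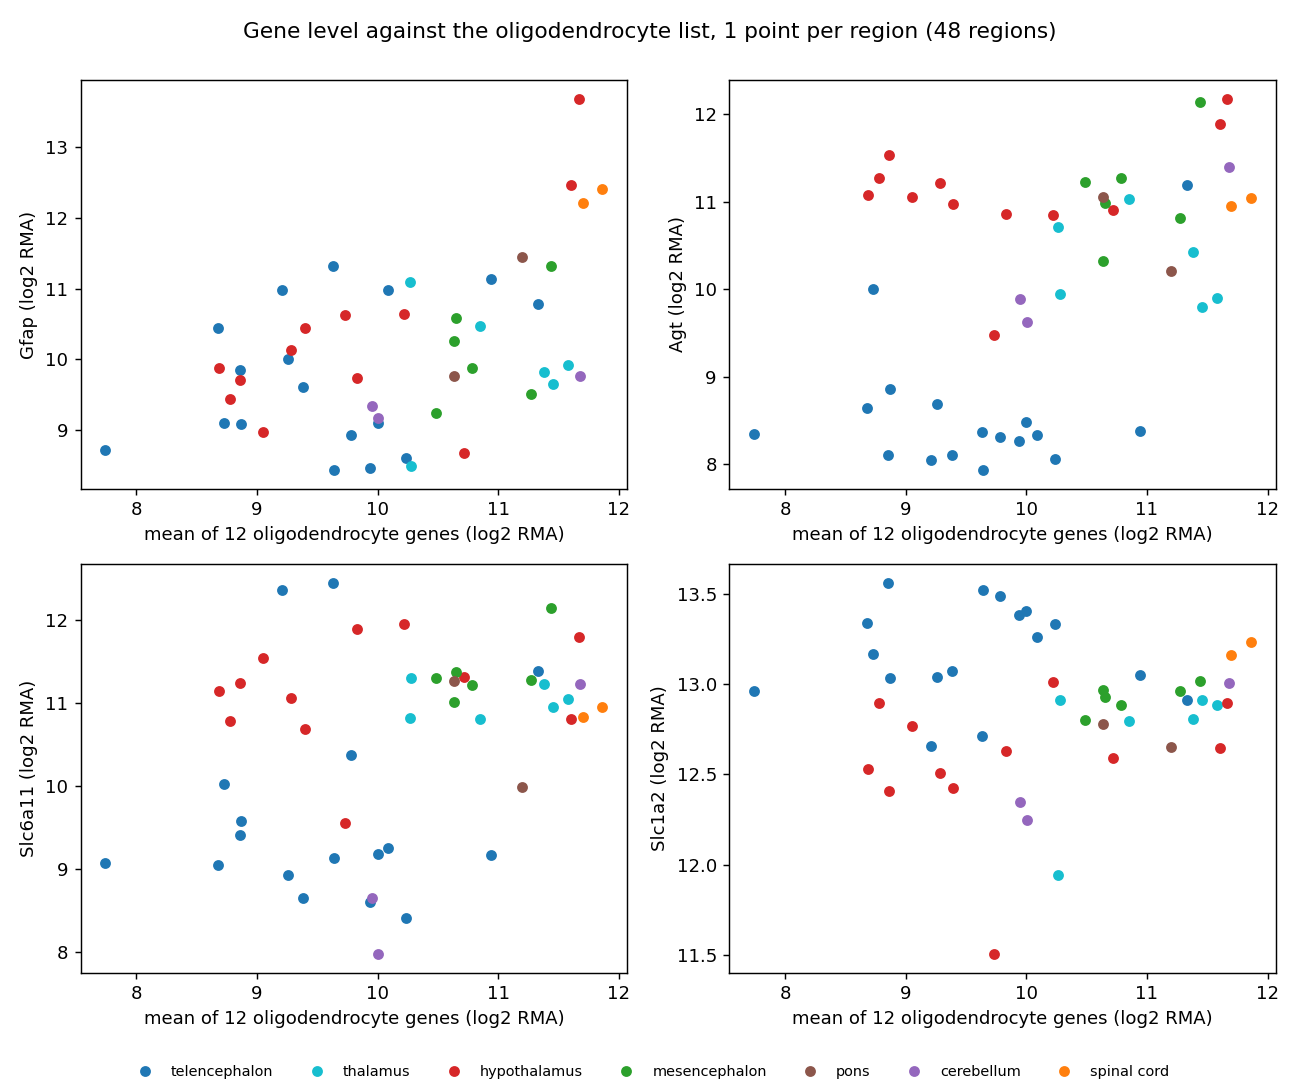
Level of *Gfap*, *Agt*, *Slc6a11* and *Slc1a2* (y axes, log2 intensity, mean of 2 pools) against the mean log2 intensity of 12 oligodendrocyte genes (x axes). Each point is a region, of 48 in all, coloured by division. *Gfap* (r = 0.48), *Agt* (0.45) and *Slc6a11* (0.33) rise with the list, and *Slc1a2* does not follow it (0.02).

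Within the telencephalon, the hippocampal formation (CA1, CA2/CA3, DG and ventral subiculum) was compared with 3 neocortical regions. *Gfap* was higher in the hippocampal formation, at 10.30 against 9.12 (1.18, standard error 0.12, adjusted p = 1.9e-11), with CA1, CA2/CA3 and DG above every neocortical region and the ventral subiculum (9.08) not. *Agt* was higher by 0.40. *Aldh1l1* (-0.56) and *Slc1a2* (-0.40) were lower with no overlap between arrays, as were 2.18% of all probe sets, and *Gjb6* (-0.46), *Slc1a3* (-0.23) and *Fgfr3* (-0.20) were lower too. Thus 2 genes were higher and 5 lower, beside 14.8% and 15.4% of all probe sets. *Aqp4* (-0.22, adjusted p = 0.19), *Gja1* (0.10) and *Slc6a11* (-0.01) did not pass the test. The calls of *Slc1a3* and *Fgfr3* were lost when single arrays were left out: *Slc1a3* then read from -0.23 to -0.16 without RS replicate 2, motor or cingulate cortex replicate 1, CA1 replicate 2, CA2/CA3 replicate 1 or DG replicate 1, and *Fgfr3* from -0.19 to -0.17 without RS replicate 2, motor or cingulate cortex replicate 1, ventral subiculum replicate 1 or DG replicate 2. *Aqp4* passed without motor cortex replicate 2 (-0.38) or cingulate cortex replicate 2 (-0.34), but its probe set with the next highest mean was higher in the hippocampal formation (0.47). DG and RS were the pair taken in one sampling period, a setting added after the data were seen, and between them *Gfap* (0.90), *Aldh1l1* (-0.97), *Gjb6* (-0.97), *Fgfr3* (-0.93) and *Slc1a2* (-0.37) passed while *Agt* (0.21) and *Slc1a3* (-0.17) did not. Choroid plexus genes were higher in the hippocampal formation in 7 of 8 (list mean 6.97 to 9.35 against 6.74 to 7.38), oligodendrocyte genes in 7 of 12 (8.87 to 10.94 against a lowest of 8.86), and endothelial genes were lower in 9 of 9. Their part was not tested.

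The globus pallidus was set against the 2 caudate putamen regions, its neighbours in the basal ganglia. *Agt* read 11.19 in the GP and 8.16 in the caudate putamen (3.03, standard error 0.15, adjusted p = 3.9e-24), an 8.16-fold difference, *Slc6a11* 11.38 and 8.51 (2.88), and *Gfap* 10.79 and 8.53 (2.26). *Gjb6* (1.70), *Aqp4* (1.20), *Gja1* (1.15), *Fgfr3* (0.85) and *Aldh1l1* (0.74) were higher too. *Slc1a2* went the other way (-0.45, adjusted p = 3.4e-05), and *Slc1a3* (0.33, adjusted p = 0.061) did not pass. With 8 genes higher and 1 lower, beside 13% and 14.1% of all probe sets, the median was 1.18 over the 10 genes and 0.01 over all probe sets (limma, Benjamini-Hochberg), and the arrays of the groups, 2 against 4, overlapped for none of the 10, nor for 36.2% of all probe sets. *Slc1a3* passed when a habenular array was left out, with an unchanged difference. *Slc1a2* was higher instead by its probe set with the next highest mean (0.97). Oligodendrocyte genes were higher in the GP in 11 of 12 (list mean 11.33 against 9.94 to 10.24), microglia genes in 9 of 9 (9.95 against 9.14 to 9.15) and other astrocyte genes in 20 of 26. The part of the first 2 lists was not tested.

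In the hypothalamus, taken against the other 36 regions, *Agt* (1.42, standard error 0.04), *Slc6a11* (0.86), *Slc1a3* (0.60), *Gjb6* (0.57), *Gfap* (0.37) and *Gja1* (0.29) were higher, and *Slc1a2* (-0.41), *Aldh1l1* (-0.22) and *Aqp4* (-0.18) lower. *Fgfr3* (0.05, adjusted p = 0.165) did not pass, except without arcuate nucleus replicate 1 (0.07, adjusted p = 0.046). All 12 hypothalamic regions had *Slc1a3* between 11.98 and 12.49, which was even for a gene that ran from 10.55 to 12.83. The 6 higher and 3 lower genes stand beside 29.2% and 29.3% of all probe sets. *Gfap* depended on the SCN, SO and ME, regions high in leptomeningeal genes: without them it was lower in the hypothalamus (-0.26), and *Fgfr3* was higher (0.14). Within the 4 sampling periods *Agt* differed by 1.92, 0.86, 2.74 and 1.19, *Slc1a3* by 0.23, 0.86, 0.66 and 0.80 and *Slc6a11* by 1.69, 0.28, 1.24 and 0.50, all positive though *Slc6a11* missed the threshold in period 2. *Gja1* differed by 0.44, 0.01, 0.38 and 0.58 and *Slc1a2* by -0.35, -0.57, -0.02 and -0.72, and neither passed in the period nearest 0. The others changed direction between periods, which also differ in the regions they hold. *Gfap* differed by 0.85, -0.22, 0.94 and 0.51, *Aqp4* by 0.44, -0.74, 0.09 and -0.13, *Gjb6* by 0.92, -0.06, 1.15 and 0.78, *Aldh1l1* by -0.08, -0.55, 0.33 and -0.30 and *Fgfr3* by 0.32, -0.43, 0.68 and -0.21. Ependymal genes were higher in 10 of 10 (list mean 7.10 to 9.61 against 6.73 to 8.55) and leptomeningeal genes in 11 of 12 (7.09 to 10.41 against 6.96 to 8.80), while oligodendrocyte genes were lower in 12 of 12 (8.68 to 11.67 against 7.74 to 11.86) and neuron genes in 7 of 10. Reactive astrocyte genes were higher in 12 of 14. The part of the other cell types was not tested.

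The SCN was then set against the other 11 hypothalamic regions. It was picked because an earlier account of these data had it high in astrocyte genes. The counts of higher genes, the sizes of the differences and their p-values therefore describe that choice and are no separate finding. *Gfap* read 13.69 against 10.06 (3.62, standard error 0.17, adjusted p = 1.9e-24), a 12.3-fold difference and the largest among the 9 comparisons. The other genes were higher by far less, *Agt* by 1.17, *Aqp4* by 1.10, *Aldh1l1* by 0.90, *Gjb6* by 0.84, *Slc6a11* by 0.71, *Gja1* by 0.53, *Fgfr3* by 0.43, *Slc1a3* by 0.38 and *Slc1a2* by 0.36. All 10 were called higher, beside 19.1% of all probe sets, and for *Gfap*, *Slc1a3*, *Gja1*, *Aldh1l1* and *Agt* both SCN arrays lay above every array of the other 11 regions, as they did for 4.35% of all probe sets. The count fell to 7 without SCN replicate 1, when *Slc1a3* (0.34, adjusted p = 0.13), *Slc6a11* (0.61, adjusted p = 0.055) and *Fgfr3* (0.35, adjusted p = 0.061) no longer passed. Other astrocyte genes were higher in 23 of 26, with *S100b* at 1.53, and *Vim* was higher by 1.07. Oligodendrocyte genes were higher in 12 of 12 (median 2.19, list mean 11.67 against 8.68 to 11.60) and leptomeningeal genes in 9 of 12 (9.16 against 7.09 to 10.41), and ependymal genes were lower in 8 of 10, where 25.6% of all probe sets were lower. In the SO, where *Gfap*, *Aqp4* and *Gjb6* were also at the top, all 12 leptomeningeal genes were higher than in the other 47 regions (median 2.92), as were all 12 oligodendrocyte, 9 endothelial and 9 microglia genes, beside 20.9% of all probe sets. Their part in these levels was not tested. Sampling period 3 holds the SCN and 1 other hypothalamic region, DM. Against DM alone, a setting added after the data were seen, *Gfap* differed by 3.96, *Aqp4* by 2.19 and *Agt* by 1.32 and 7 genes passed, while *Slc1a2* (0.27), *Slc6a11* (-0.09) and *Fgfr3* (-0.08) did not.

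In the thalamus the genes lay closest to the other regions among the 9 comparisons, with a median difference of 0.04, and in the mesencephalon and pons the median was 0.41. Against the other 42 regions, *Slc6a11* (0.60), *Aqp4* (0.39) and *Agt* (0.30) were higher in the thalamus and *Slc1a3* (-0.63), *Gfap* (-0.21) and *Slc1a2* (-0.19) lower, beside 19.3% and 23% of all probe sets, with the remaining 4 between 0.03 and 0.07. *Gfap* did not pass without VA/VL replicate 2 (-0.18), VPM/VPL replicate 1 (-0.18), the medial geniculate replicate 1 (-0.16) or Hb replicate 2 (-0.12), nor with the SCN, SO and ME left out of the other regions (-0.04). Within sampling periods 1 and 2, *Slc6a11* differed by 1.05 and 0.41, *Slc1a3* by -0.83 and -0.15 and *Slc1a2* by -0.11 and -0.07 (*Slc1a3* in period 2 and *Slc1a2* in both were not past the threshold), but *Agt* by 0.35 and -0.24, *Aqp4* by 0.75 and -0.39 and *Gfap* by 0.23 and -0.78. In the mesencephalon and pons *Agt* (1.15), *Slc6a11* (0.83), *Aqp4* (0.76), *Fgfr3* (0.46), *Aldh1l1* (0.41), *Gjb6* (0.40), *Gja1* (0.30) and *Gfap* (0.20) were higher than in the other 40 regions and *Slc1a3* (-0.47) was lower. These 8 and 1 stand beside 22.9% and 22% of all probe sets. Within period 2 *Gfap* differed by -0.12, while *Agt* (0.53), *Slc6a11* (0.47), *Aqp4* (0.40), *Aldh1l1* (0.34), *Fgfr3* (0.23), *Gjb6* (0.19), *Gja1* (0.15) and *Slc1a3* (-0.23) kept their direction and their call. In both divisions all 12 oligodendrocyte genes were higher (median 0.94 each, list mean 10.27 to 11.58 in the thalamus and 10.48 to 11.44 in the mesencephalon and pons), and in the thalamus all 12 leptomeningeal genes were lower. Their part was not tested.

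In the cerebellar cortex, whose main astrocytes are the Bergmann glia, the genes went in both directions. *Slc6a11* read 8.31 against 10.60 in the other 46 regions (-2.28, standard error 0.11, adjusted p = 3.5e-25), a 4.87-fold lower signal, and *Slc1a3* 12.79 against 11.65 (1.15, standard error 0.08, adjusted p = 7.8e-19), with all 4 cerebellar arrays above every other array, as they were for 2.85% of all probe sets. *Aqp4* (0.93) and *Aldh1l1* (0.48) were higher, and *Gfap* (-0.88), *Slc1a2* (-0.60), *Agt* (-0.30) and *Fgfr3* (-0.30) lower. *Gja1* (-0.06) and *Gjb6* (0.15) did not pass. This gave 3 genes higher and 5 lower, beside 25% and 35.7% of all probe sets. Of the Bergmann glia markers 4 of 5 were higher (list mean 8.84 to 8.89 against 7.07 to 8.33). Of 26 other astrocyte genes 13 were higher and 9 lower, with *S100b* at 1.59, *Itih3* at 0.69 and *Slc39a12* at -0.18. Of the filament genes *Vim* (1.67) was higher and *Synm* (-1.45) and *Plec* (-0.26) lower, all 7 glutamate and glutamine genes were lower, with *Slc1a1* at -1.47, and 5 of 6 one-carbon genes were higher, with *Gldc* at 1.00. Microglia genes (9 of 9, list mean 7.94 to 7.97 against 8.36 to 9.95) and ependymal genes (10 of 10) were lower, and their part was not tested. Within sampling period 1, a setting added after the data were seen, *Slc6a11* differed by -2.09, *Slc1a3* by 0.93 and *Gfap* by -0.32, *Agt* (-0.05) did not pass, and *Gja1* (0.17) and *Gjb6* (0.27) were higher. In the cerebellar nucleus, against the other 47 regions, 7 genes were higher and *Slc1a3* was lower, beside 14.9% and 14.5% of all probe sets. *Slc6a11*, *Agt*, *Fgfr3* and *Slc1a3* were called there in the direction opposite to the cortex, and *Aqp4* and *Aldh1l1* in the same one.

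The spinal cord had *Gfap* at 12.31, with pools from 12.18 to 12.44, above its mean elsewhere (2.32, standard error 0.12, adjusted p = 4.6e-24), a 4.99-fold higher signal. *Aqp4* (1.71), *Agt* (1.00), *Fgfr3* (0.71), *Gjb6* (0.64), *Gja1* (0.43), *Slc6a11* (0.41), *Slc1a2* (0.34) and *Aldh1l1* (0.32) were higher too, and *Slc1a3*, at 10.57 against 11.74 (-1.17), was lower. The 9 higher and 1 lower stand beside 18.2% and 22.1% of all probe sets, and the median was 0.53. *Slc6a11* was no longer past the threshold without posterior spinal cord replicate 2 (0.32, adjusted p = 0.072). Among listed genes *S100b* (1.92), *Gjb1* (1.81), *Fgf1* (1.65), *Synm* (1.15), *Slc39a12* (1.05), *Cd44* (1.05), *Kcnj16* (1.03) and *Kcnj10* (0.99) were higher, and *Gldc* (-0.88), *Gad1* (-0.53), *Gjc1* (-0.31), *Mas1* (-0.30) and *Slc1a1* (-0.14) lower. Of 26 other astrocyte genes 19 were higher and 1 lower. The spinal cord also held the highest oligodendrocyte list means, 11.70 to 11.86 against 7.74 to 11.68, with 12 of 12 genes higher (median 1.88). Of 10 neuron genes 7 were higher and 2 lower, the first being the neurofilament genes *Nefh* (2.69) and *Nefm* (2.63), and the list mean was 12.52 to 12.53 against 10.56 to 12.55. Microglia genes were higher in 4 of 9 and lower in none, and ependymal genes were lower in 7 of 10. The part of these cell types was not tested. Within sampling period 2, a setting added after the data were seen, *Gfap* differed by 2.29, *Aqp4* by 1.54 and *Slc1a3* by -0.91, and *Slc6a11* (0.20, adjusted p = 0.186) did not pass. The pallidal comparison could not be made within a period, since the GP and the caudate putamen were taken in different ones.

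**Figure D4:**
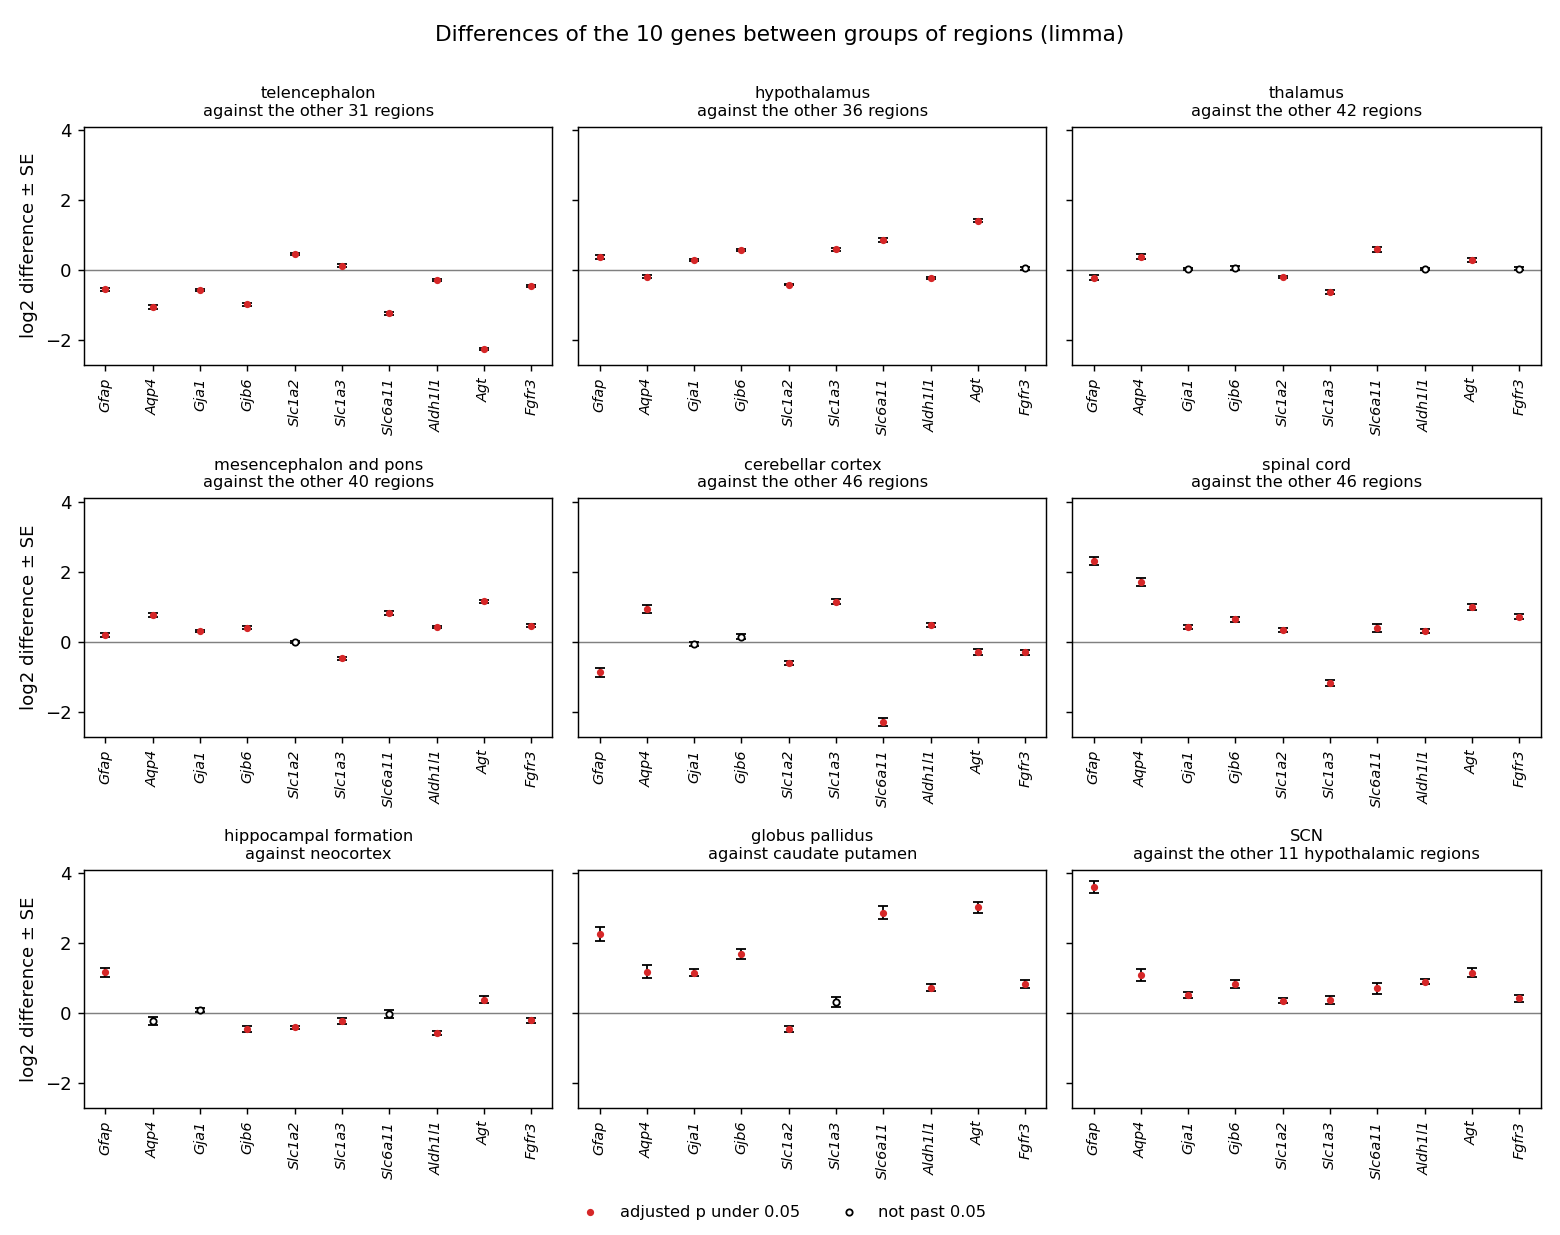
Difference in log2 intensity between the first and second group of each of 9 comparisons (panels) for the 10 astrocyte genes (x axis), with points for the difference, bars for 1 standard error from limma, and filled points for adjusted p under 0.05. *Gfap* in the SCN (3.62) and *Agt* in the globus pallidus (3.03) lie highest, and *Slc6a11* in the cerebellar cortex (-2.28) and *Agt* in the telencephalon (-2.25) lowest.

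The remaining probe sets give a check on the choice. For *Gfap* the 2 others followed the chosen one (r = 0.98 and 0.95 over 48 regions) and were also highest in the SCN, and for *Aqp4* they did so at 0.87 and 0.90, with the maximum in the anterior spinal cord and in Hb. For *Gja1* 3 of 5 had r of 0.98 to 0.99, and for *Slc1a3* 2 of 5 had r of 0.97 and 0.98, while the rest had 0.90 and 0.64 and 0.86, 0.70 and 0.40. The 4 others of *Slc1a2* had r from 0.53 to 0.77, and the second of *Fgfr3* had 0.75. The second probe sets of *Aldh1l1* and *Slc6a11* lay at 6.69 and 5.14 on average, varied little (standard deviations 0.11 and 0.08) and did not follow the chosen ones (r = 0.10 and 0.28). *Agt* and *Gjb6* have a single probe set here, so their values have no such check. The chosen probe sets of *Slc1a3* and *Gja1* are of the type that may also bind other transcripts.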

How the data were processed

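RNA of 2 pools from each of 51 regions was hybridised by the authors to 102 whole-genome Affymetrix arrays, each mouse transcript being read by 1 or more sets of short probes, and the deposited values are log2 intensities that the authors computed with RMA, whose version is not given in the sources used here. RMA scales all arrays to a common distribution, so only differences relative to the other transcripts are seen. Regions came from the sample labels, and no sample was left unassigned. The 64 control probe sets were left out. Of the other 45037 probe sets, the array annotation names 1 gene for 34945 and several for 932.

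limma 3.58.1 in R 4.3.3 was fitted to all 45037 probe sets on 96 arrays of 48 regions, with 1 coefficient per region and no covariate (48 residual degrees of freedom, median residual standard deviation 0.119), and p-values were adjusted over all probe sets (Benjamini-Hochberg, threshold 0.05). The fit was tested on simulated data. Nothing in the labels says that the pools of a region came from separate mice, so p-values measure the spread between pools.

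The alternatives were cyclic loess normalization, the variance trend with robust estimation, removal of probe sets whose regional means all lay under 7, all 51 regions, the probe set with the next highest mean, sampling periods (for the cerebellar cortex, spinal cord, hippocampal and SCN comparisons added after the data were seen), doubted regions left out, each array left out, and the replicate number as a block. The 10 genes, the lists of pathway genes (filament, water and potassium, glutamate and glutamine, GABA, connexin, angiotensin, fibroblast growth factor, one-carbon, other astrocyte and reactive) and of cell types (oligodendrocyte, microglia, endothelial, leptomeningeal, ependymal, choroid plexus, tanycyte, Bergmann glia, Müller glia and neuron) were chosen with earlier results of these data known. Named beside the 10 genes were the 3 genes of each pathway list with the largest difference past the threshold in the telencephalon comparison, also where other comparisons are described, and the 3 genes most correlated with each.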

Additional observations from a re-analysis of the deposited data

How the results depend on the processing

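The number of the 10 genes past the threshold stayed within 1.5 times in every comparison and under every alternative but that of the next probe set, and the pairs of gene and region past it numbered 335 in the fit as reported, 305 against regions of the same sampling period and 339 with dim probe sets removed. Leaving out single arrays gave 7 to 10 genes for the SCN, 9 to 10 for the globus pallidus, the hypothalamus and the spinal cord, 5 to 8 for the hippocampal formation, 5 to 6 for the thalamus, 8 for the cerebellar cortex, 9 for the mesencephalon and pons, 10 for the telencephalon and for differences among regions, and 328 to 340 pairs. With the replicate number as a block the counts were 335 pairs, 10 genes for the telencephalon, 9 for the hypothalamus and 6 for the thalamus, equal to those without it, and the block changed no other count. Over 1128 pairs of regions the deviations of same-numbered pools correlated at 0.0085 on average, with 282 pairs above 0.1 and 234 below -0.1. The average shows no common deviation by replicate number. It cannot exclude that pools of some regions share deviations, since opposite signs cancel in it. Among the 8 genes with several probe sets, the next probe set called 177 pairs in place of 271, 3 genes in place of 5 in the thalamus and 2 in place of 5 in the hippocampal formation. For single genes, 23 differences changed direction where the reported value or the alternative was past the threshold, and the cause was not tested, while another 64 changed sign with neither past it. Within sampling period 1 these were *Slc1a3* in the telencephalon (-0.20), *Aqp4* in the hypothalamus (0.44), *Gfap* in the thalamus (0.23) and *Gja1* in the cerebellar cortex (0.17). Within period 2 they were *Gfap* (-0.22), *Gjb6* (-0.0561) and *Fgfr3* (-0.43) in the hypothalamus, *Aqp4* (-0.39), *Gja1* (-0.14) and *Agt* (-0.24) in the thalamus, and *Gfap* (-0.12) and *Slc1a2* (-0.12) in the mesencephalon and pons. Within period 3 they were *Aqp4* (0.0852) and *Aldh1l1* (0.33) in the hypothalamus, and *Slc6a11* (-0.0879) and *Fgfr3* (-0.0776) in the SCN. Without SCN, SO and ME it was *Gfap* in the hypothalamus (-0.26). With the next probe set they were *Aldh1l1* in the cerebellar cortex (-0.0909), spinal cord (-0.0600) and SCN (-0.12), *Slc6a11* in the thalamus (-0.0430), *Aqp4* in the hippocampal formation (0.47) and *Slc1a2* in the globus pallidus (0.97). Beyond these, 51 values of single genes lost their call and 16 gained one. The dim second probe sets of *Aldh1l1* and *Slc6a11* carry little signal to compare.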

Other observations

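Over the 48 regions, *Gfap* had r = 0.60 with the mean of the leptomeningeal list, *Slc1a3* had r = -0.54 and *Fgfr3* r = 0.54 with the neuron list, given as descriptions of points that share arrays. In ME, where *Slc1a2* and *Fgfr3* were lowest, tanycyte genes were higher than in the other 47 regions in 6 of 6 (median 1.94). Neuron genes were lower there in 9 of 10 (median -1.45). Over all probe sets 21.4% were higher and 20.4% lower in ME. In the olfactory bulb, where *Slc6a11* was highest and *Agt* near its floor, oligodendrocyte genes were lower in 10 of 12 in the anterior and 9 of 12 in the posterior part, where 16% and 17.5% of all probe sets were lower, and leptomeningeal genes were higher in 11 and 9 of 12, beside 16.4% and 17.2%. The part of these cell types was not tested. The widest differences between pools among the 10 genes were those of *Gfap* in Hb (1.10) and CA2/CA3 (1.07), *Aqp4* in motor cortex (0.963) and *Slc6a11* in the anterior amygdala (0.940).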
